A study of Mus musculus with 10 samples.

Results

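The genes described here are 37 named members of the antigen presentation pathway and of the interferon response, 13 and 24 in turn, followed in mouse somatosensory cortex after conditional deletion of Nsd1, the gene of a chromatin enzyme that methylates histone H3. The members were chosen by name: any row whose gene name, or 1 of whose joined gene names, was a member counted. All 37 were found in both deposited tables, as 38 of the 23283 named rows in the Nex model and as 37 of the 54427 named rows in the Camk2a model. The Nex model had 3 control libraries (Nex_Ctrl) and 3 Nsd1Nex-cKO libraries (Nex_cKO) from mice of 2.5 months. The Camk2a model had 2 control libraries (Camk2a_Ctrl) and 2 Nsd1Camk2a-cKO libraries (Camk2a_cKO) from mice of 3 months. The genotype given was Nsd1fl/+ for both Camk2a_Ctrl replicates and for Nex_Ctrl replicates 1 and 2, whereas the third Nex_Ctrl was Nsd1fl/fl, so every control carried at least 1 floxed allele. Nex-Cre is expressed from the Neurod6 locus in postmitotic excitatory neurons and Camk2a-Cre in maturing excitatory neurons, so other cortical cells keep Nsd1 in both models. Neither litter, batch nor the Cre status of controls is labelled, and it is not said that every library came from a mouse of its own, so p-values measure the spread between these libraries.

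Cells display pieces of their own proteins on major histocompatibility complex (MHC) class I molecules, which are made by most cells but sparingly by neurons. MHC class II molecules are made mainly by professional antigen presenting cells, in brain chiefly by border macrophages and activated microglia. Type I interferons act through their receptor on a complex that includes Stat2 and Irf9 and binds the interferon-stimulated response element (ISRE) in the promoters of antiviral genes, and interferon gamma acts on the gamma-activated site (GAS). In bulk cortex, fewer cells of a type and less RNA per cell cannot be told apart.

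Among members whose cKO and control values did not overlap in the Nex model, Ddx58, Ifih1, Ifitm3 and Isg15 hold ISRE letters. Ddx58 and Ifih1 lay above the controls and the others below them. The promoters of the 3 that were tested, Ifih1, Ifitm3 and Isg15, are shown. They run from 250 bases before to 50 bases after the RefSeq start site (GRCm38.p6), 5′ to 3′ on the gene's strand, at chr2:62646206-62646505 for Ifih1, chr7:141010695-141010994 for Ifitm3 and chr4:156200769-156201068 for Isg15, all on the minus strand. The ISRE letters searched were GAAA, any 2 bases and GAAA again, capitals mark their matches on either strand, and overlapping matches run together.
Ifih1: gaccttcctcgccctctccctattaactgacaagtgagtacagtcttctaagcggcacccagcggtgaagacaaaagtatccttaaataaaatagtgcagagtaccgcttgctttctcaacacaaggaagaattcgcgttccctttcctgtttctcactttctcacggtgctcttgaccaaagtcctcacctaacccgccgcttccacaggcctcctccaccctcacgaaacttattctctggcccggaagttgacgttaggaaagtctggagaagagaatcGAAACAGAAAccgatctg
Ifitm3: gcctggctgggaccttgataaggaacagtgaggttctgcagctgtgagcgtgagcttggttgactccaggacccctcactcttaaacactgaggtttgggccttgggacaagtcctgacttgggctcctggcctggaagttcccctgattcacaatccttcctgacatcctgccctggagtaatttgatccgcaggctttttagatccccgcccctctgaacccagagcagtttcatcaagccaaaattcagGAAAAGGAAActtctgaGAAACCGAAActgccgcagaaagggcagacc
Isg15: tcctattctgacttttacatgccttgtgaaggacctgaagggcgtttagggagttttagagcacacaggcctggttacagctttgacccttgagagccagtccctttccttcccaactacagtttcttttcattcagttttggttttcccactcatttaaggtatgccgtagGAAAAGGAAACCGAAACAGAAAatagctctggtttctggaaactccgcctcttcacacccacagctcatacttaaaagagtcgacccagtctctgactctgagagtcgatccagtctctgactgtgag
The match in Ifih1 begins 32 bases after the start site, those in Ifitm3 begin 2 and 19 bases after it, and the 3 overlapping matches in Isg15 begin 78, 72 and 66 bases before it. RefSeq promoter windows were matched for 28 of the 37 members. The ISRE letters occurred in at least 1 window of 12 of 19 interferon-stimulated members (63.2%), against 3.99% of all 27025 genes with a window, and in 1 of 9 antigen presentation members, B2m. The GAS letters TTCNNNGAA, searched the same way, occurred in 4 of 19 interferon-stimulated members (21.1%) and 1 of 9 antigen presentation members (11.1%), against 9.55% of all genes. These matches are a description of letters, and no binding was measured.

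The libraries had the transcripts of cortical excitatory neurons, with the vesicular glutamate transporter Slc17a7 at 464.2 to 588.7 FPKM in the Nex model and 248.2 to 296.8 FPKM in the Camk2a model (FPKM: fragments scaled to transcript length and to the library's mapped fragments, as deposited). Nsd1 alone had 5.61 and 8.87 FPKM in Camk2a_Ctrl and 4.31 and 4.99 FPKM in Camk2a_cKO libraries. In the Nex table it was joined with Prelid1 at 125.1 to 141.4 FPKM in controls and 91.0 to 118.1 FPKM in cKO libraries. Nex_cKO replicate 3 stood apart: it had the Y-linked Ddx3y at 16.2 FPKM, listed at 0 in the other 5 Nex libraries, and 41.55% of its summed FPKM lay in unnamed rows, against 2.33% to 19.41% in the others. Ddx3y was present throughout the Camk2a model (10.98 to 12.35 FPKM), where 16901717 to 20074933 reads per library could be recovered. Xist, made from the inactive X chromosome of females, had 33.6 to 46.5 FPKM in the 5 Nex libraries without Ddx3y. It had at most 0.00939 FPKM in Nex_cKO replicate 3 and the Camk2a libraries. By these transcripts Nex_cKO replicate 3 and all Camk2a libraries were male and the other Nex libraries female. The depth of the Nex libraries is unknown.

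Levels spanned a wide range within both groups of members, as the plot of levels by library shows. B2m, the light chain shared by all MHC class I molecules, was the most abundant antigen presentation member, and Nlrc5, the transactivator of class I genes, the least. Among the interferon-stimulated members, the mitochondrial protein gene Ifi27 was the most abundant and the nucleic acid sensor Zbp1 the least, listed at 0 in 1 control and 1 cKO library of the Nex model. Testing required FPKM 1 or more in 3 Nex libraries, or in 2 Camk2a libraries. That admitted 9 of 14 antigen presentation rows and 14 of 24 interferon-stimulated rows in the Nex model, and 6 of 13 and 11 of 24 in the Camk2a model. Levels are compared within a table only, since the 2 tables used different gene models.

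**Figure D1:**
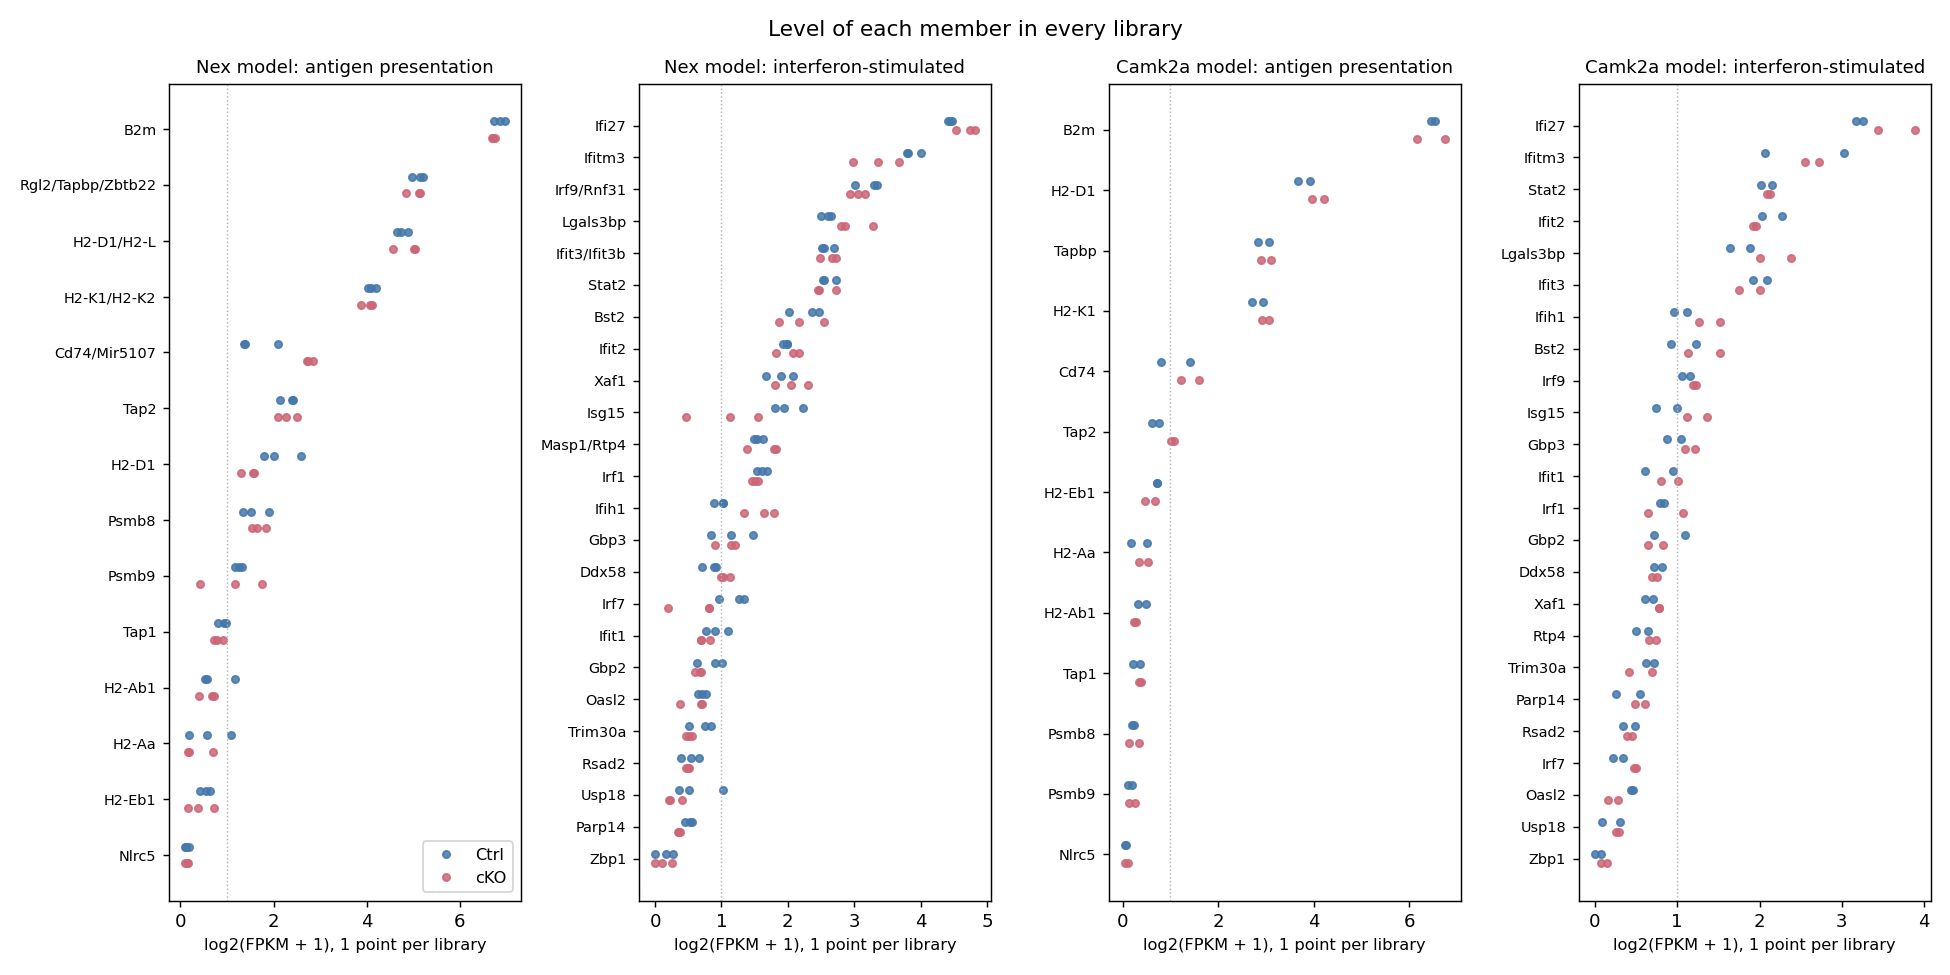
Level of each member in every library, as log2(FPKM + 1) on the horizontal axis, ordered by mean level, with controls in blue and cKO in red. The dotted line marks FPKM 1. B2m and Ifi27 lead their lists in both models, most cKO and control points interleave, and Cd74/Mir5107 in the Nex model is the widest separation among antigen presentation members.

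The first comparison asks which members differed at 2.5 months when Nsd1 was deleted in postmitotic excitatory neurons. Of 23 tested member rows, 2 were higher in Nex_cKO and 0 were lower at adjusted p under 0.05 by limma on log2(FPKM + 1), with Benjamini-Hochberg adjustment over all 12528 rows tested. Across all tested rows 4.47% were higher and 4.06% lower, 8.53% in either direction, which is the background against which 2 of 23 is to be read. At an unadjusted p under 0.05 there were 4 members higher and 3 lower, where 8.88% of all rows were higher and 23.5% passed in either direction. The higher members were Cd74, which chaperones MHC class II molecules to the endosome, and Ifih1, which encodes the double-stranded RNA sensor MDA5. The other 21 tested rows, among them B2m, H2-K1/H2-K2, Stat2 and Ifit2, did not pass, and the class II chains H2-Aa, H2-Ab1 and H2-Eb1, with Tap1, Nlrc5 and 10 interferon-stimulated members, were not tested. Antigen presentation rows had a median log2 change of -0.07 and interferon-stimulated rows of 0.00 (-0.0031), against -0.04 over all tested rows.

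The Cd74 row, joined with the microRNA gene Mir5107, had 3.28, 1.57 and 1.60 FPKM in Nex_Ctrl replicates 1 to 3 and 6.17, 5.58 and 5.69 FPKM in Nex_cKO replicates 1 to 3. The lowest cKO library lay well above the highest control, which was replicate 1. On the log2(FPKM + 1) scale the change was 1.15 (SE 0.19, limma adjusted p = 0.00605, n = 3 each), a mean of 2.15 ± 0.981 against 5.81 ± 0.318 FPKM (SD). It passed the threshold under all 13 alternative settings, with adjusted p from 0.000466 to 0.0297. The class II chains that Cd74 chaperones were near the bottom of the range and were not tested. H2-Aa, an alpha chain, had 0.133 to 1.14 FPKM in control and 0.124 to 0.617 FPKM in cKO libraries. H2-Ab1, a beta chain, had 0.448 to 1.25 and 0.317 to 0.651 FPKM, and H2-Eb1, another beta chain, 0.340 to 0.545 and 0.120 to 0.662 FPKM. In all 3 chains the groups overlapped and the cKO mean was the smaller one.

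Markers of several cell types, only some of them known to make Cd74, were measured beside it. Of 14 microglial marker rows, 13 had a positive change and 2, Trem2 and Ctss, were higher, where 40.5% of all tested rows had a positive change and 4.47% were higher. Their summed level was 258.7 to 320.0 FPKM in controls and 310.2 to 357.0 FPKM in cKO libraries, with all 14 rows detected. The 7 markers of perivascular macrophages summed to 3.66 to 4.17 FPKM in controls and 2.58 to 3.27 FPKM in cKO libraries, but they split. Cbr2 lay below the controls (0.679 to 1.01 against 0.271 to 0.320 FPKM in cKO libraries). Cd163 (0.170 to 0.217 against 0.478 to 1.03 FPKM) and Lyve1 (0.0794 to 0.260 against 0.279 to 0.344 FPKM) lay above them. The others overlapped, among them Pf4, the only 1 tested, with means of 1.55 and 0.521 FPKM. Among 4 B cell markers the sums were 0.244 to 0.480 and 0.130 to 0.444 FPKM, with 1 marker at 0 throughout. Of 8 T and natural killer cell marker rows, 3 were at 0 in every Nex library, and the sums were 0.383 to 0.726 and 0.560 to 0.938 FPKM. Among 10 astrocyte marker rows the reactive markers Serpina3n (log2 change 1.58, limma adjusted p = 9.67e-05) and Gfap (0.82, adjusted p = 0.00605) were also higher. No other row of that list passed, and its median log2 change was 0.02. Vim, a further reactive marker, had 10.8 to 12.2 FPKM in controls and 10.5 to 11.9 FPKM in cKO libraries, with the smaller cKO mean. Of 10 excitatory neuron marker rows 6 were lower. The part of these cells in the Cd74 and Ifih1 results was not tested.

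The class I genes lay close together between the groups. B2m had 123.7, 105.8 and 115.5 FPKM in controls and 103.9, 102.3 and 107.2 FPKM in cKO libraries, which overlap (log2 change -0.14, SE 0.08, limma adjusted p = 0.340). The heavy chain gene H2-K1, joined with H2-K2, had 15.2 to 17.4 FPKM in controls and 13.6 to 16.3 FPKM in cKO libraries (adjusted p = 0.599). The heavy chain gene H2-D1 was split over 2 rows that differed in sign. The row joined with H2-L had 28.7, 25.7 and 23.99 FPKM in controls and 31.5, 32.0 and 22.6 FPKM in cKO libraries (log2 change 0.12, SE 0.13, adjusted p = 0.641). The smaller row of H2-D1 alone had 2.48, 3.03 and 4.98 FPKM in controls and 1.48, 1.96 and 1.99 FPKM in cKO libraries, which did not overlap (log2 change -0.65, SE 0.19, adjusted p = 0.0780). How reads divide between H2-D1 and its close copy H2-L is uncertain, so neither row gives the level of H2-D1 alone.

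The genes that cut and load peptides also missed the threshold. The peptide transporter subunit Tap2 had 3.40 to 4.34 FPKM in controls and 3.27 to 4.70 FPKM in cKO libraries, and Tap1, its partner, was under the filter at 0.747 to 0.964 and 0.650 to 0.886 FPKM. Among the immunoproteasome subunits, Psmb8 had 1.55 to 2.76 and 1.90 to 2.57 FPKM. Psmb9 ranged more widely in cKO libraries, from 0.333 FPKM in replicate 3 to 2.38 FPKM in replicate 2, around controls of 1.25 to 1.502 FPKM. Tapbp, which encodes the peptide loading factor tapasin, was joined with Rgl2 and Zbtb22 at 27.7 to 36.0 FPKM over all 6 libraries, so its own level could not be read. Nlrc5 was at 0.074 to 0.137 FPKM in all libraries. Of the 13 antigen presentation members 10 lie on chromosome 17, where the MHC is, and in the 3-month table's coordinates the neighbours Psmb9 (34181988 to 34187764), Tap1 (34187553 to 34197225), Psmb8 (34197721 to 34201454) and Tap2 (34203527 to 34216321) adjoin. In the Nex model the cKO mean was the smaller one for Tap1, Tap2 and Psmb9 and the larger one for Psmb8.

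Ifih1 (chromosome 2, 62595798 to 62646255, minus strand, protein coding) had 1.03, 1.04 and 0.850 FPKM in Nex_Ctrl and 1.54, 2.13 and 2.46 FPKM in Nex_cKO libraries. All cKO values lay above all controls, and replicate 3 was the highest. The log2 change was 0.62 (SE 0.14, limma adjusted p = 0.0294, n = 3 each). The call was lost without Nex_Ctrl replicates 1, 2 and 3 in turn (adjusted p = 0.0876, 0.0841 and 0.117), without Nex_cKO replicates 2 and 3 (0.0584 and 0.0554) and with the replicate block (0.0597), with log2 changes of 0.52 to 0.64. Ddx58, which encodes the related RNA sensor RIG-I, was under the filter. It had 0.638, 0.852 and 0.892 FPKM in controls and 1.19, 1.04 and 0.995 FPKM in cKO libraries, which did not overlap.

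Isg15, a ubiquitin-like protein attached to other proteins in the interferon response, had the largest negative change among the tested members. It had 3.71, 2.51 and 2.83 FPKM in controls and 1.19, 1.94 and 0.385 FPKM in cKO libraries, all below the controls (log2 change -0.94, SE 0.25, limma adjusted p = 0.0533). It missed the threshold, and passed it under 3 of 12 alternatives, with adjusted p from 0.0117 to 0.186 over the 12. The 3 were the sum of the 2 rows named Isg15 (log2 change -0.78, adjusted p = 0.0314), the fit without Nex_cKO replicate 2 (-1.19, adjusted p = 0.0117) and the replicate block (adjusted p = 0.0476). The membrane protein Ifitm3, which blocks the entry of viruses, had 15.1, 12.9 and 13.1 FPKM in controls and 9.28, 11.7 and 6.88 FPKM in cKO libraries, again without overlap (log2 change -0.54, SE 0.16, adjusted p = 0.0778). Without Nex_cKO replicate 2, the cKO library nearest to the controls, Ifitm3 had adjusted p = 0.0138. It passed under no other of the 13 alternatives, with adjusted p up to 0.241. Irf7, the transcription factor that amplifies type I interferon, was under the filter, with 0.944, 1.3999 and 1.52 FPKM in controls and 0.753, 0.756 and 0.140 FPKM in cKO libraries. Nex_cKO replicate 3 was the lowest cKO library for Isg15, Ifitm3 and Irf7.

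Endothelial cells make Ifitm3 and other members, and their markers were measured beside these values. Of 10 tested endothelial marker rows, 2, Cldn5 and Egfl7, were lower and the other 8 did not pass, and 0 had a positive change, against 40.5% of all tested rows. Their summed level was 132.3 to 168.1 FPKM in controls and 106.5 to 118.0 FPKM in cKO libraries. The red blood cell rows summed to 130.4 to 287.0 FPKM in controls and 54.2 to 97.4 FPKM in cKO libraries. The part of either cell type in the values of Isg15, Ifitm3 and Irf7 was not tested.

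Ifi27 and Lgals3bp lay on the other side. Ifi27 had 20.8, 21.3 and 20.2 FPKM in controls and 27.2, 25.9 and 22.3 FPKM in cKO libraries, without overlap (log2 change 0.26, SE 0.09, limma adjusted p = 0.106). Leaving out Nex_cKO replicate 3, the cKO library nearest to the controls, gave a log2 change of 0.34 (adjusted p = 0.0140). That was the only pass among 13 alternatives, where adjusted p reached 0.286. Lgals3bp, a secreted glycoprotein that binds galectins, had 5.31, 5.11 and 4.66 FPKM in controls and 8.77, 5.96 and 6.24 FPKM in cKO libraries (log2 change 0.39, SE 0.14, adjusted p = 0.121). Its groups did not overlap either, and Nex_cKO replicate 1 was the highest.

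The factors that carry the interferon signal and its common antiviral effectors overlapped between the groups. Stat2 had 4.77 to 5.65 FPKM in controls and 4.47 to 5.62 FPKM in cKO libraries, and Irf9, joined with Rnf31, had 7.05 to 9.18 and 6.70 to 7.94 FPKM (adjusted p = 0.422). Irf1, an activator of class I genes, had 1.89 to 2.21 and 1.75 to 1.92 FPKM. The Ifit proteins, which bind viral RNA, were as close: Ifit2 had 2.80 to 2.98 and 2.54 to 3.51 FPKM, and Ifit3 with Ifit3b 4.72 to 5.49 and 4.62 to 5.64 FPKM. Bst2, which tethers budding virus to the cell, had 3.04 to 4.55 and 2.66 to 4.86 FPKM. Xaf1, a proapoptotic factor, had 2.18 to 3.24 and 2.51 to 3.95 FPKM, and the guanylate-binding GTPase Gbp3 had 0.792 to 1.79 and 0.866 to 1.30 FPKM. Rtp4, a chaperone of membrane receptors, was joined with Masp1 at 1.63 to 2.55 FPKM over all 6 libraries.

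The interferon-stimulated members under the filter were led by Irf7, at up to 1.52 FPKM. Parp14, an ADP-ribosyltransferase, had 0.364 to 0.470 FPKM in controls and 0.268 to 0.303 FPKM in cKO libraries, without overlap. Ifit1, the deconjugating enzyme Usp18, the antiviral enzymes Oasl2 and Rsad2, Trim30a, Gbp2 and Zbp1 overlapped between the groups. Usp18 had 0.289 to 1.03 FPKM in controls and 0.156 to 0.322 FPKM in cKO libraries. Over all members, tested or not, cKO values lay above all controls in 5 of 38 rows and below them in 5. Among tested rows this held for 4 and 3 of 23, where the background over all tested rows was 11.5% above and 18.9% below, or 30.4% together. Of all rows under the filter with any value, 13.9% lay above and 5.68% below.

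**Figure D2:**
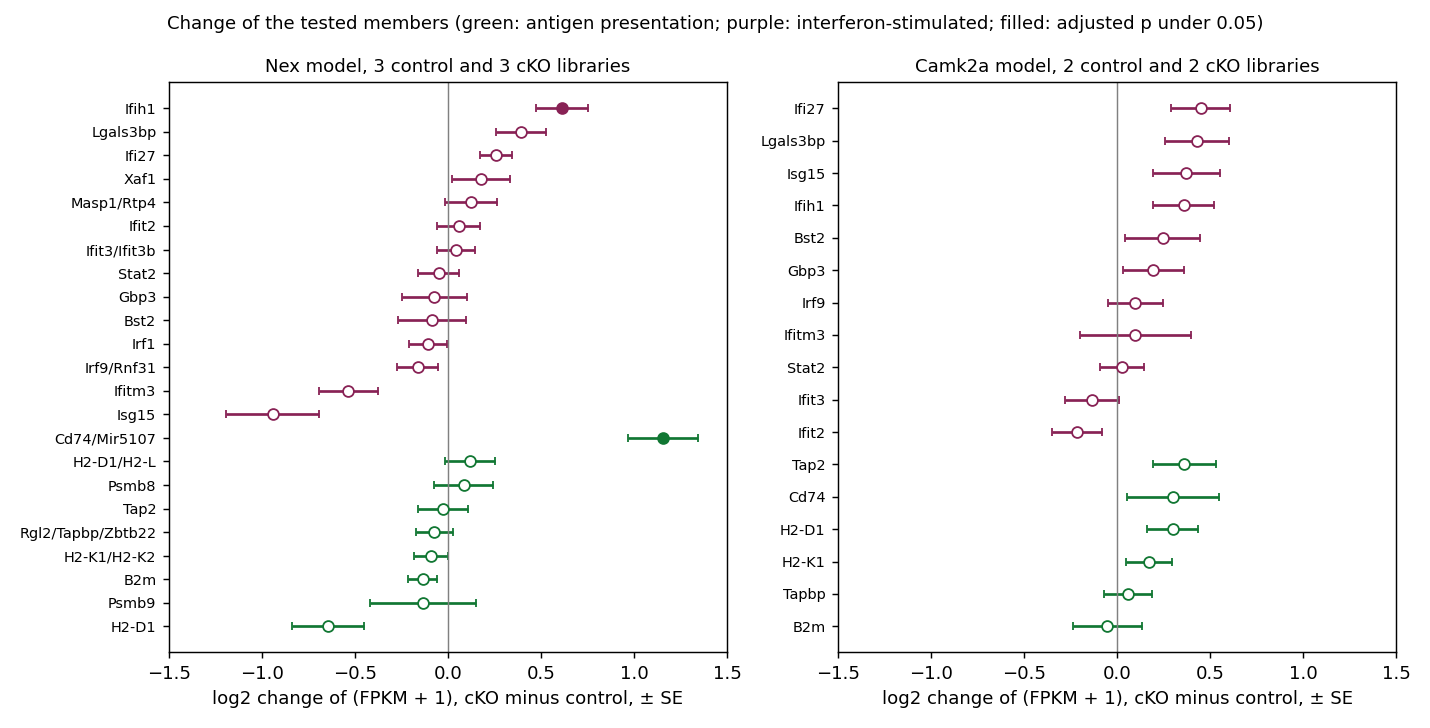
Change of each tested member, cKO minus control, as the log2 change of (FPKM + 1) with its standard error, in the Nex model (left) and the Camk2a model (right). Filled points passed adjusted p 0.05: Cd74/Mir5107 at 1.15 and Ifih1 at 0.62 in the Nex model and none in the Camk2a model.

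The second comparison asks which members differed at 3 months when Nsd1 was deleted later, with the Camk2a driver. None of the 17 tested members passed: 0 were higher and 0 lower by limma at adjusted p under 0.05, as for all 12919 genes tested (0.0%). At an unadjusted p under 0.05 there were 2 members, Ifi27 and Lgals3bp, both with higher cKO values, where 6.96% of all tested genes had such a p and 3.61% had it with higher cKO values. With 2 libraries a group, the test had fewer samples than in the Nex model. The 6 antigen presentation members had a median log2 change of 0.23, with 5 of 6 positive, and the 11 interferon-stimulated members a median of 0.19, with 9 of 11 positive, against a median of -0.01 and 47.5% positive over all tested genes. The first of these medians was 0.0581 with no filter on low values, 0.11 with a filter of FPKM 5 and 0.0253 without Camk2a_Ctrl replicate 1. For the second, the middle values with no filter were those of Ifitm3 and Irf9, both 0.097. Tap2 and Isg15 count in these medians and among the positive members. Both passed the filter only through the cKO libraries, so their sign was partly fixed by it.

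Ifi27 had 8.52 and 8.03 FPKM in Camk2a_Ctrl and 13.7 and 9.85 FPKM in Camk2a_cKO libraries, from 215, 233, 359 and 243 recovered reads (log2 change 0.45, SE 0.16, limma adjusted p = 0.650). Both cKO libraries lay above both controls, with replicate 1 the higher. Lgals3bp had 2.12 and 2.70 FPKM in controls and 4.22 and 3.01 FPKM in cKO libraries, from 104, 152, 214 and 144 reads (log2 change 0.43, SE 0.17, adjusted p = 0.701). Ifih1 had 1.17 and 0.948 FPKM in controls and 1.87 and 1.41 FPKM in cKO libraries, from 164, 153, 272 and 194 reads (log2 change 0.36, SE 0.17, adjusted p = 0.747). In each of these genes the groups did not overlap and Camk2a_cKO replicate 1 was the highest library.

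Isg15 rested on few reads here, 13 and 10 in the controls against 21 and 15 with the deletion, or 0.999 and 0.669 against 1.56 and 1.18 FPKM (adjusted p = 0.759). It passed the filter only through the cKO libraries, and with no filter had adjusted p = 0.870. Irf7 had 0.169 and 0.268 FPKM in controls and 0.387 and 0.410 FPKM in cKO libraries, from 11, 20, 26 and 26 reads, and was under the filter. In both genes the cKO values lay above the controls, the opposite side from the Nex model. Ifitm3 had 3.17 and 7.16 FPKM in controls, which enclosed the cKO values of 4.89 and 5.61 FPKM. Ifit2 had 3.08 and 3.85 FPKM in controls and 2.88 and 2.79 FPKM in cKO libraries, the only tested member whose cKO values lay below both controls (adjusted p = 0.821). Bst2 had 0.901 and 1.34 FPKM in controls and 1.87 and 1.19 FPKM in cKO libraries, which overlap.

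Among antigen presentation members, Tap2 had 0.523 and 0.696 FPKM in controls and 1.03 and 1.10 FPKM in cKO libraries, from 34, 52, 69 and 70 reads (log2 change 0.36, SE 0.17, adjusted p = 0.749). Tap2 too passed the filter only through the cKO libraries, and with no filter had adjusted p = 0.870. H2-D1, in a single row in this table, had 14.1 and 11.7 FPKM in controls and 17.6 and 14.6 FPKM in cKO libraries (log2 change 0.30, SE 0.14, adjusted p = 0.737). Tap2 and H2-D1 lay above the controls in each cKO library. Cd74 had 0.742 and 1.65 FPKM in controls and 1.31 and 2.02 FPKM in cKO libraries, from 18, 46, 33 and 48 reads, and the groups overlapped (log2 change 0.30, SE 0.25, adjusted p = 0.868). B2m had 92.1 and 87.2 FPKM in controls, between the cKO values of 105.8 and 70.5 FPKM (adjusted p = 0.978). H2-K1 had 5.53 and 6.69 against 7.41 and 6.57 FPKM, and Tapbp, here in a row of its own, 6.10 and 7.35 against 6.48 and 7.60 FPKM. The 7 antigen presentation members under the filter had 4 to 30 reads a library. Among them H2-Ab1 and H2-Eb1 lay below the controls in both cKO libraries, on 5 to 15 reads each.

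Over all 37 members the Camk2a_cKO values lay above both controls in 12 and below both in 4. Among tested members this held for 8 and 1 of 17, where 16.2% of all tested genes lay above and 21.1% below. Without Tap2 and Isg15, whose side was partly fixed by the filter, it held for 6 and 1 of 15. The shares for genes under the filter with any read were 16.2% and 9.35%, and 4 and 3 of the 20 members there did so. Endothelial markers summed to 89.5 to 93.0 FPKM in controls and 98.4 to 110.0 FPKM in cKO libraries, and red blood cell transcripts to 80.4 to 100.9 and 124.4 to 159.3 FPKM. Microglial markers summed to 183.2 to 209.8 and 185.5 to 209.1 FPKM, with 5 of 14 tested positive. The part of these cells in the members' values was not tested.

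**Figure D3:**
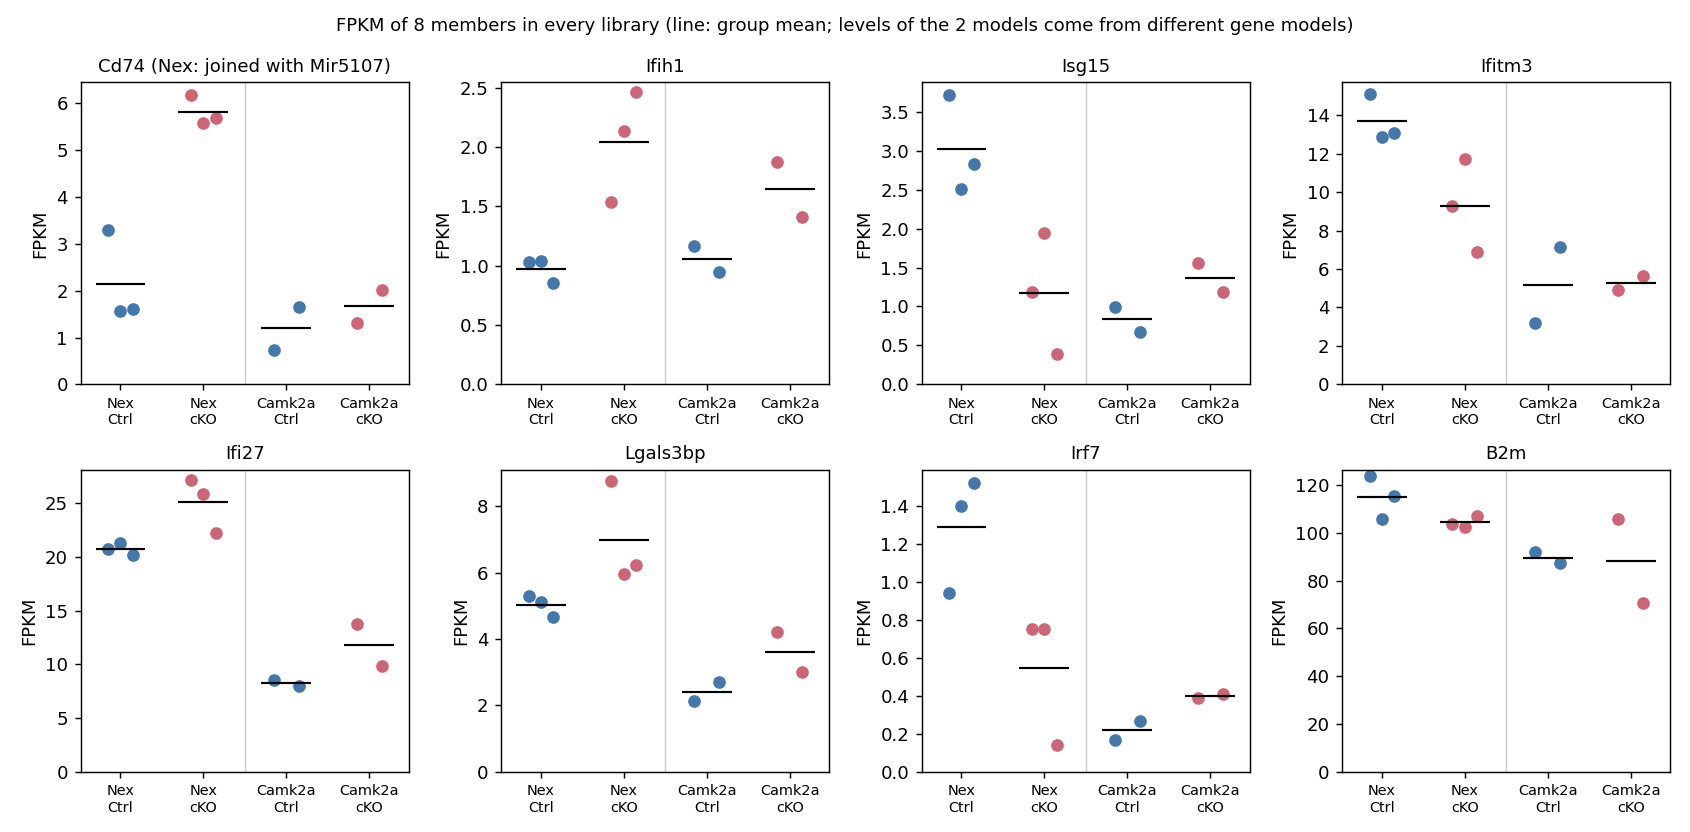
FPKM of 8 members in every library of both models, with controls in blue, cKO in red and a line at each group mean. Ifih1, Ifi27 and Lgals3bp lie above the controls in every cKO library of both models, while Isg15 and Irf7 lie below them in the Nex model and above them in the Camk2a model. Levels are not comparable between the models, whose gene models differ.

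The third comparison asks whether the changes differed between the models, in which age, driver and table differ together. Sex differs with them too: by Xist and Ddx3y all Camk2a libraries were male, and all Nex libraries but Nex_cKO replicate 3 female. None of the 12 members tested in both tables passed (0 higher and 0 lower by limma, adjusted over all 10408 shared genes, of which 0.375% were higher and 0.154% lower, 0.528% in either direction). At an unadjusted p under 0.05 there were 2 members, both negative, against 13.4% of all genes in either direction and 8.51% with a negative difference (4.84% with a positive one). They were Isg15, with a difference, Nex minus Camk2a, of -1.31 (SE 0.36, adjusted p = 0.163), and the H2-D1 row of the Nex table that holds only part of that gene's reads (-0.95, SE 0.28, adjusted p = 0.174). Without Nex_cKO replicate 2 the difference of Isg15 passed (-1.57, adjusted p = 0.0429), and it passed under no other alternative. Isg15 entered this test only through Camk2a_cKO libraries on the Camk2a side, and with no filter its difference had adjusted p = 0.149. The differences were 0.26 (SE 0.21) for Ifih1, -0.19 (SE 0.18) for Ifi27 and -0.04 (SE 0.23) for Lgals3bp. Of 31 members with a row of their own in both tables, Ifih1, Ifi27 and Lgals3bp had cKO values above all controls in both models, as did 3.58% of the 15748 shared names with a value in both tables. Isg15 and Irf7 lay below all controls in the Nex model and above both in the Camk2a model, as did 2.29% of the shared names. The small H2-D1 row did so too, but the larger row of H2-D1 with H2-L overlapped in the Nex model, so H2-D1 cannot be placed. Below in both lay 0 members, against 3.62% of the shared names. The models share no library.

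Genes of the same pathways outside the member list were read from lists of 31 other antigen presentation genes, 60 other interferon-stimulated genes, 21 interferon genes, 18 receptor and signalling genes and 14 genes of nucleic acid sensing. In the Nex model 3 of their 78 tested rows were higher and 0 lower, where 4.47% of all tested rows were higher and 4.06% lower. The row of the guanylate-binding GTPases Gbp10 and Gbp6 had 0.488, 0.418 and 0.415 FPKM in controls and 2.04, 1.36 and 1.92 FPKM in cKO libraries (log2 change 0.94, SE 0.13, limma adjusted p = 0.00286). Tlr7, an endosomal receptor for single-stranded RNA known in brain from microglia, had 0.721, 0.501 and 0.549 FPKM in controls and 1.83, 1.39 and 1.79 FPKM in cKO libraries (log2 change 0.74, SE 0.13, adjusted p = 0.00726). Both rows reached the test only through the cKO libraries. When low rows were kept in, limma gave adjusted p = 0.00340 for Gbp10/Gbp6 and 0.00666 for Tlr7. The row of Ifit1bl1 and Ifit1bl2 had 1.33, 1.66 and 1.24 FPKM in controls and 2.198, 2.47 and 2.35 FPKM in cKO libraries (log2 change 0.47, adjusted p = 0.0367). In all 3 rows each cKO library lay above each control.

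The interferon genes and the receptor and signalling genes gave no call, and the interferon genes were too low to test. Of the 21 interferon genes 19 were listed at 0 in every Nex library, and the others, Ifnk and Ifnz, reached at most 0.112 and 0.0816 FPKM. In the Camk2a model all but Ifnab, 20 in number, were at 0 in every library. Both receptor subunits for type I interferon were present, Ifnar1 at 7.12 to 7.78 FPKM in Nex_Ctrl and 6.65 to 7.43 FPKM in Nex_cKO, and Ifnar2 at 8.82 to 9.37 and 7.72 to 11.3 FPKM. Of the 17 tested rows of receptors and signalling 12 had a negative change in the Nex model, where 59.5% of all tested rows did. The signal inhibitor Socs1 had 2.95, 1.74 and 2.15 FPKM in controls and 1.51, 1.02 and 0.603 FPKM in cKO libraries (log2 change -0.69, SE 0.19, adjusted p = 0.0641). Irf3, the factor activated by nucleic acid sensors, had 7.77, 8.11 and 9.32 against 7.10, 5.61 and 5.18 FPKM (log2 change -0.44, SE 0.12, adjusted p = 0.0587). H2-DMb1 with H2-DMb2, which load peptides on class II, had 0.602, 1.17 and 0.7002 FPKM in controls and 1.60, 1.79 and 1.48 FPKM in cKO libraries (adjusted p = 0.0531), with 1 control at FPKM 1 or more. Ifnar1, Ifnar2, Socs1, Irf3 and the H2-DMb row were chosen after their values were seen. In the Camk2a model 0 of 64 tested genes of these lists were called, with 2 at an unadjusted p under 0.05. Of the 60 other interferon-stimulated genes there, tested or not, 24 had both cKO values above both controls and 7 below, against 16.2% and 14.9% of all genes with any value. Among the 23 of them that were tested the counts were 10 and 2, against 16.2% and 21.1%, and Gbp9, 1 of the 10, passed the filter only through the cKO libraries.

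**Figure D4:**
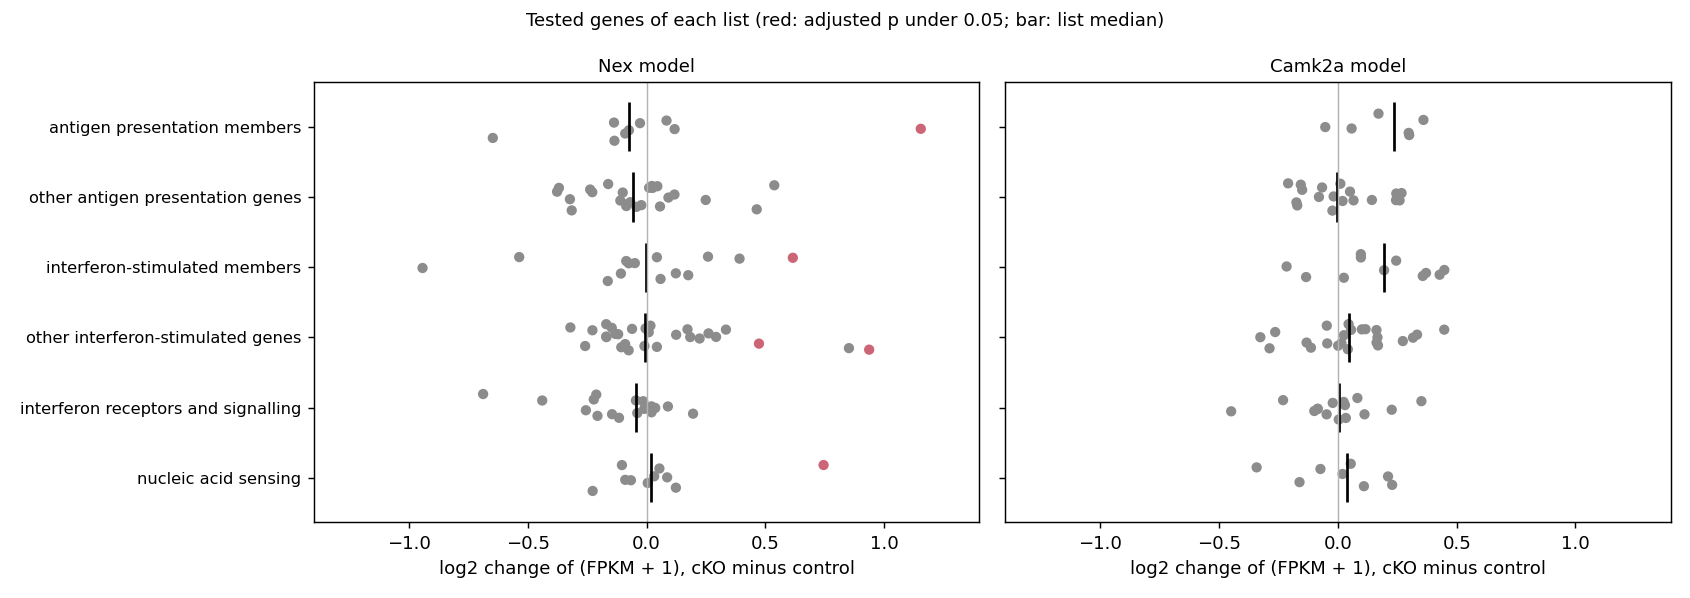
Log2 change of (FPKM + 1), cKO minus control, for each tested gene of 6 lists in both models, with a bar at each list's median and red for adjusted p under 0.05. In the Nex model 5 genes are red, all with positive changes, and the list medians lie between -0.07 and 0.02. In the Camk2a model none is red and the medians of the member lists are 0.23 and 0.19. These include Tap2 and Isg15, which passed the filter only through the cKO libraries.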

How the data were processed

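Somatosensory cortex RNA was sequenced after library preparation with an NEBNext Ultra II kit, per the labels. The authors deposited FPKM values in 1 table per model. Builds mm10 and GRCm38 and the tools Cufflinks 2.2.1, STAR, DESeq2 and cutadapt appear in the submitters' processing notes, where their roles are not given. Values of the 3-month table times its gene length were whole multiples of 1 step per library (100.0% within a tolerance of 0.1), which gave reads, with counting error only. Unnamed rows (4463 in the Nex table) were left out, and the row of highest mean was kept for a repeated name (1864 and 105 rows left out). FPKM is scaled by mapped fragments, so fragments in unnamed rows can lower other values of a library, but a share of summed FPKM is not a share of fragments. The median ratio of a library's named values to the gene means was 0.9732 in Nex_cKO replicate 3. It was 0.9818 and 0.9922 in Nex_cKO replicates 1 and 2 and 1.012 to 1.0301 in Nex_Ctrl. The named values of replicate 3 were thus not lowered in step with its unnamed share.

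Each table was fitted apart with limma 3.58.1 (intensity trend) in R 4.3.3 on log2(FPKM + 1), which understates changes of low genes. Rows entered with FPKM 1 or more in 3 (Nex) or 2 (Camk2a) libraries, and p-values are two-sided and adjusted over all genes tested. The difference of changes was fitted over 10408 shared names. The fit was tested on simulated data. Members, gene lists, tests and alternatives were chosen with earlier results of these data known. By the naming rule, statistics are given for members past the threshold and for the 6 tested members of each list with the smallest p, and for other listed genes that passed. Socs1, Irf3, the H2-DMb row and 2 astrocyte markers were added to these after their values were seen. Members named beyond these are described by values. Marker sums leave out rows joined with genes outside the list. Alternatives were median ratio rescaling, an unfiltered table, a filter of FPKM 5, a pseudocount of 0.1, no trend, a replicate block, each library left out and, added after the data were seen, the sum of repeated rows. RefSeq promoter windows are on GRCm38.p6.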

Additional observations from a re-analysis of the deposited data

Results flagged for a closer look

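Irf7 is singled out because every cKO library lay on one side of every control in the Nex model and on the other side in the Camk2a model. The difference of mean FPKM, cKO minus control, was -0.740 for Nex and 0.180 for Camk2a. Irf7 was under the filter, so the difference between models was not tested with the main settings. With no filter on low values limma gave a difference, Nex minus Camk2a, of -0.78 (SE 0.26, adjusted p = 0.211), and the Camk2a values rest on 11 to 26 reads.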

How the results depend on the processing

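The limits are the 3 and 2 libraries a group, the low levels of most members, joined rows and the unknown depth of the Nex table. In the Nex model the antigen presentation members higher stayed at 1 under every alternative, and those lower were 1 (H2-D1, adjusted p = 0.0429) with the replicate block and 0 otherwise. The interferon-stimulated members higher were 0 with a filter of FPKM 5 and with the replicate block, and 0 to 1 with single libraries left out. Those lower were 1 with the replicate block and 1 with the sum of repeated rows, and 0 to 2 with single libraries left out (2 without Nex_cKO replicate 2, Isg15 and Ifitm3). In the Camk2a model 0 members passed under any alternative. The antigen presentation median there was 0.0581 with no filter on low values, 0.11 with a filter of FPKM 5 and 0.0253 to 0.242 with single libraries left out. With no filter the middle values of the interferon-stimulated members were those of Ifitm3 and Irf9, both 0.097.

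For the difference between models the interferon-stimulated members lower were 0 to 1 with single libraries left out. The antigen presentation median of -0.39 was over 3 rows: B2m (-0.08), the H2-D1 row with part of that gene's reads (-0.95) and Tap2 (-0.39). It was thus the value of Tap2, which entered only through Camk2a_cKO libraries on the Camk2a side. That median was -0.76 with a pseudocount of 0.1, -0.13 with no filter and -0.0825, the value of B2m, with a filter of FPKM 5. The interferon-stimulated median of -0.19 was -0.41 with that filter, from Ifitm3 and Ifi27 only. Fewer genes were tested at FPKM 5, and the cause of the other shifts was not tested. With single libraries left out, some log2 changes far from the threshold turned sign. The Rgl2, Tapbp and Zbtb22 row ranged from -0.14 to 0.0209 (without Nex_cKO replicate 3). In the Camk2a model Tapbp ranged from -0.0588 (without Camk2a_Ctrl replicate 1; -0.0426 without Camk2a_cKO replicate 2) to 0.175, B2m from -0.34 to 0.24 (without Camk2a_cKO replicate 2) and Cd74 from -0.0022 (without Camk2a_Ctrl replicate 1) to 0.60. Without Camk2a_cKO replicate 1 the difference turned for B2m (range -0.37 to 0.21) and Ifi27 (range -0.41 to 0.0315). Same-numbered Nex libraries had correlations of their deviations from the group means of 0.017, -0.104 and -0.096. There 0 of 6 libraries correlated best with their own number, so the numbers gave no sign of pairing the Nex samples. With 2 libraries a group, the Camk2a deviations mirror each other. Both Camk2a pairs must then share a correlation, here 0.05, and all libraries match their own numbers or none does. All did, which cannot decide on pairing there.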
